A study of Mus musculus with 6 samples.

Results

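Genes of the tricarboxylic acid (TCA) cycle and of the mitochondrial shuttles were followed in gastrocnemius muscle of old male mice given inotodiol or vehicle. The set is a list of 29 gene symbols, matched by name, of 23282 rows in each count table. It holds 5 genes of the pyruvate dehydrogenase complex, 12 of the cycle itself, 2 of anaplerosis, 3 of citrate export and its cytosolic enzymes, 6 of the malate-aspartate shuttle and 1 of the glycerol phosphate shuttle. All 29 symbols were in the tables, and 28 passed the filter on low counts; Me2, the mitochondrial malic enzyme, did not. The first group was 3 wild-type (WT) C57/BL6J mice, 20 months old, given inotodiol by mouth each day at 0.35 mg/kg for 10 weeks. The others were 3 mice of the same strain, age and sex given only the vehicle. It mixed polyethylene glycol (40%) and Tween 80 (5%) with 0.9% normal saline. Inotodiol is a lanostane triterpenoid of the chaga mushroom, and the series title links it to muscle wasting, mitochondrial function and liver X receptor beta. All animals were old and male, so no value here is set against young muscle.

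The TCA cycle burns acetyl groups to carbon dioxide in the mitochondrial matrix and hands the electrons to the respiratory chain as NADH and succinate. The pyruvate dehydrogenase complex feeds it with acetyl-CoA from glucose, and anaplerotic enzymes refill its intermediates. The inner mitochondrial membrane does not let NADH through, so working muscle moves the reducing power of glycolysis inward with the malate-aspartate and glycerol phosphate shuttles.

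No difference between inotodiol and vehicle muscle was detected in any of these genes. Of the 28 members tested, 0 were called by the quasi-likelihood test of edgeR at an adjusted p (Benjamini-Hochberg over all 11700 genes) below 0.05, beside 0% of all genes tested. None had an unadjusted p under 0.05 either, where 4.87% of all genes did (2.67% higher, 2.21% lower), and the smallest was 0.065, for Idh1. DESeq2 called 0 of the same 28 members and had 0 at an unadjusted p under 0.05, beside 1 called and 652 under 0.05 of all 16491 genes. With limma-voom 0 members were called and 1, Idh1, was under 0.05, beside 0 and 564 of all 11700 genes. Log2 fold changes, inotodiol over vehicle, ran from -0.68 to 0.36 with a median of 0.064, beside a median of -0.00073 over all genes tested. Above 0 were 16 of the 28 members (57.1%), against 49.9% of all genes. The members were measured more closely than most genes, with a median standard error of 0.14 on the log2 scale against 0.28 over all genes. For 23 of the 28 the 95% interval of the log2 fold change lay within 0.5 on either side of 0, a change of at most 1.41-fold in either direction, and 19% of all genes tested met the same bound. The 5 members whose intervals crossed that bound were Slc25a1, Aco1, Idh1, Slc25a13 and, by a narrow margin, Slc25a12.

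**Figure D1:**
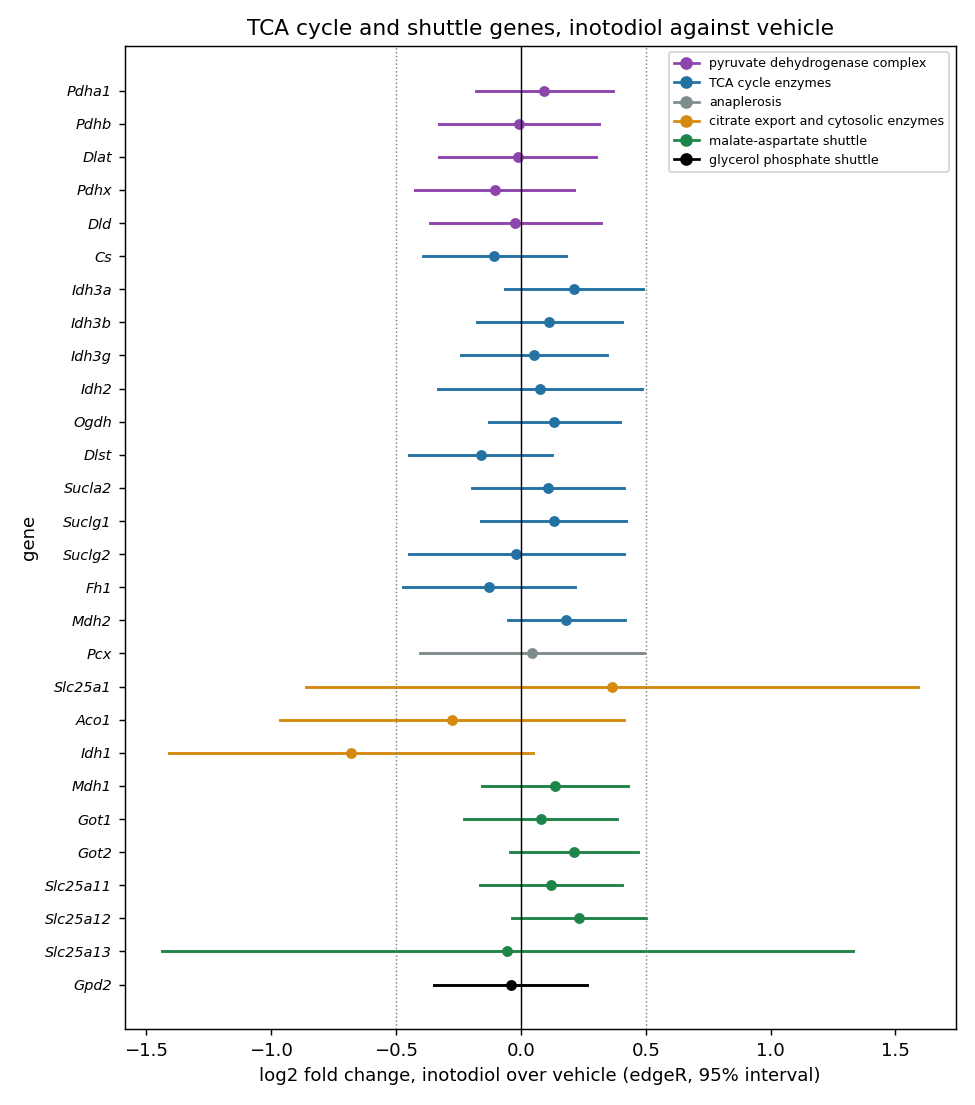
Log2 fold change of each member, inotodiol over vehicle (x axis), by gene (y axis), with its 95% interval from edgeR; colours mark the roles and dotted lines stand at -0.5 and 0.5. Every interval includes 0, and 23 of 28 lie between the dotted lines.

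**Figure D2:**
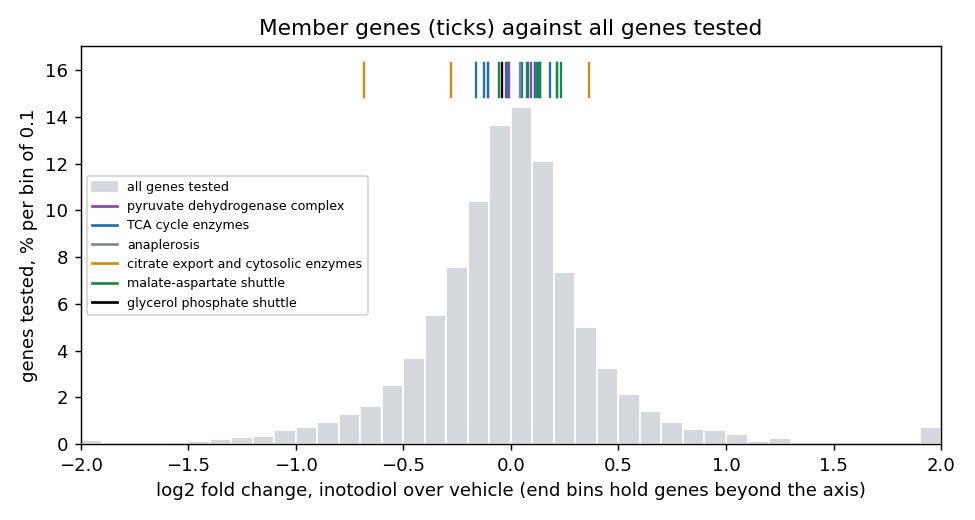
Share of the 11700 tested genes in each bin of 0.1 of the log2 fold change, inotodiol over vehicle (bars, y axis in percent), with the 28 members as ticks above. The end bins also hold 21 genes below -2 and 80 above 2. Between -0.25 and 0.25 lie 25 members and 59% of all genes tested.

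Values in single libraries are given below as CPM, counts relative to the library size scaled with TMM factors, and deviations as SD over 3 mice. Each library held 8961893 to 9953764 counts. Genes of fast muscle fibres alone (13 genes) took from 19.5% to 21.5% of the counts of a library, so the defining genes of the labelled muscle were present. Libraries of different groups correlated as closely as libraries of 1 group, with Pearson r over log2 CPM of 0.937 to 0.955 in 9 pairs and of 0.943 to 0.950 in 6 pairs. The share of Rn45s, a ribosomal RNA precursor, was 10.2%, 9.56% and 4.33% in inotodiol libraries 1 to 3, against 3.97%, 6.82% and 4.38% in vehicle libraries 1 to 3. These shares overlapped between groups. Liver transcripts parted the groups: 25 hepatocyte genes summed to 770.1, 322 and 142 unscaled CPM with inotodiol, against 59.8, 116 and 90.3 with vehicle. The 16 exocrine pancreas genes summed to 81.0 unscaled CPM in inotodiol 1 and at most 2.16 elsewhere. Of the hepatocyte genes 7 were at 0 in at least 1 library, and all 16 pancreas genes were. In bulk tissue, fewer cells of a type and less RNA per cell cannot be told apart.

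The subunits of the pyruvate dehydrogenase complex, which turns pyruvate into acetyl-CoA, showed no detectable difference. Pdha1 encodes the alpha subunit of its decarboxylase and had 237, 256 and 259 CPM in inotodiol libraries 1 to 3, against 265, 223 and 218 CPM in vehicle libraries 1 to 3. The groups overlapped, with vehicle 1 above every inotodiol library. Its log2 fold change was 0.094 ± 0.13 (SE), with a 95% interval from -0.18 to 0.37. Pdhb, the beta subunit of the same enzyme, averaged 186 ± 31.9 CPM with inotodiol and 187 ± 14.4 CPM with vehicle. For the acetyltransferase core Dlat the means were 95.2 ± 8.93 and 95.9 ± 9.63 CPM, in the same order of groups. The binding protein gene Pdhx averaged 55.9 ± 3.99 CPM with inotodiol and 60.1 ± 2.19 CPM with vehicle, and Dld, the dihydrolipoamide dehydrogenase that the complex shares with oxoglutarate dehydrogenase, 70.7 ± 10.4 and 71.8 ± 5.79 CPM. Of the 5 log2 fold changes 1 was above 0, and they ran from -0.11 to 0.094. Inotodiol 1 had the lowest value of 3 of the 5 genes, Pdhb, Dlat and Dld, and without it the log2 fold changes of these genes were 0.13, 0.065 and 0.093.

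Enzymes of the cycle were split in sign, 8 of 12 above 0, with a median log2 fold change of 0.093. Citrate synthase, encoded by Cs, starts the cycle, and its enzyme activity, not measured here, is widely used as a measure of mitochondrial content. The Cs transcript stood at 301, 359 and 398 CPM in inotodiol libraries 1 to 3, against 406, 356 and 378 CPM in vehicle libraries 1 to 3. Inotodiol 1 was the lowest library and the others overlapped, for a log2 fold change of -0.11 ± 0.13 (95% interval -0.39 to 0.18). It was -0.0038 without inotodiol 1 and -0.20 without inotodiol 3.

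Idh3a encodes the catalytic subunit of the NAD-dependent isocitrate dehydrogenase, a rate-setting step of the cycle. It had 288, 347 and 319.7 CPM with inotodiol, against 295, 282 and 246 CPM with vehicle. Only inotodiol 1 fell within the vehicle range, and the log2 fold change was 0.21 ± 0.13 (95% interval -0.065 to 0.49; edgeR adjusted p 0.96). Idh3b and Idh3g, the regulatory subunits, had log2 fold changes of 0.11 ± 0.13 and 0.053 ± 0.14. The NADP-dependent mitochondrial enzyme Idh2 had 213, 192 and 204 CPM with inotodiol, against 146, 266 and 166 CPM with vehicle. All inotodiol libraries lay inside the spread of the vehicle libraries, where the SD was 64.3 CPM around a mean of 193 CPM. Its log2 fold change of 0.075 ± 0.19 was 0.39 without vehicle 2 (edgeR unadjusted p 0.026, adjusted p 0.97) and -0.091 without vehicle 1.

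The oxoglutarate dehydrogenase complex is the other decarboxylating step. Ogdh, its decarboxylase, had 442, 394 and 488 CPM with inotodiol, against 399, 413 and 395 CPM with vehicle, a log2 fold change of 0.13 ± 0.12 (95% interval -0.13 to 0.40). Dlst, its succinyltransferase core, had 145, 147 and 161 CPM with inotodiol, against 151, 185 and 171 CPM with vehicle, a log2 fold change of -0.16 ± 0.13 (95% interval -0.45 to 0.13). Dlst had the lowest value of the 12 cycle enzymes on this scale, and in both genes the groups overlapped. Of the succinyl-CoA ligase genes, Suclg1, the shared alpha subunit, had 234, 290.0 and 303 CPM with inotodiol, against 239, 274 and 242 CPM with vehicle. Sucla2, the ATP-forming beta subunit, averaged 195 ± 20.2 CPM with inotodiol and 180.4 ± 23.4 CPM with vehicle, and Suclg2, the GTP-forming one, 36.8 ± 8.70 and 37.3 ± 3.76 CPM. Fumarase, encoded by Fh1, averaged 165 ± 36.6 CPM with inotodiol and 180.4 ± 8.74 CPM with vehicle, with inotodiol 1 lowest at 128 CPM; its log2 fold change was -0.13 ± 0.16 and 0.027 without that library.

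Malate dehydrogenase of the matrix, Mdh2, closes the cycle and also serves the malate-aspartate shuttle. It had 1158, 1051 and 1101 CPM in inotodiol libraries 1 to 3, against 929.8, 999.9 and 988 CPM in vehicle libraries 1 to 3. Every inotodiol library lay above every vehicle library, by a narrow margin between inotodiol 2 and vehicle 2. The log2 fold change was 0.18 ± 0.11, with a 95% interval from -0.052 to 0.42, and the edgeR adjusted p was 0.96.

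**Figure D3:**
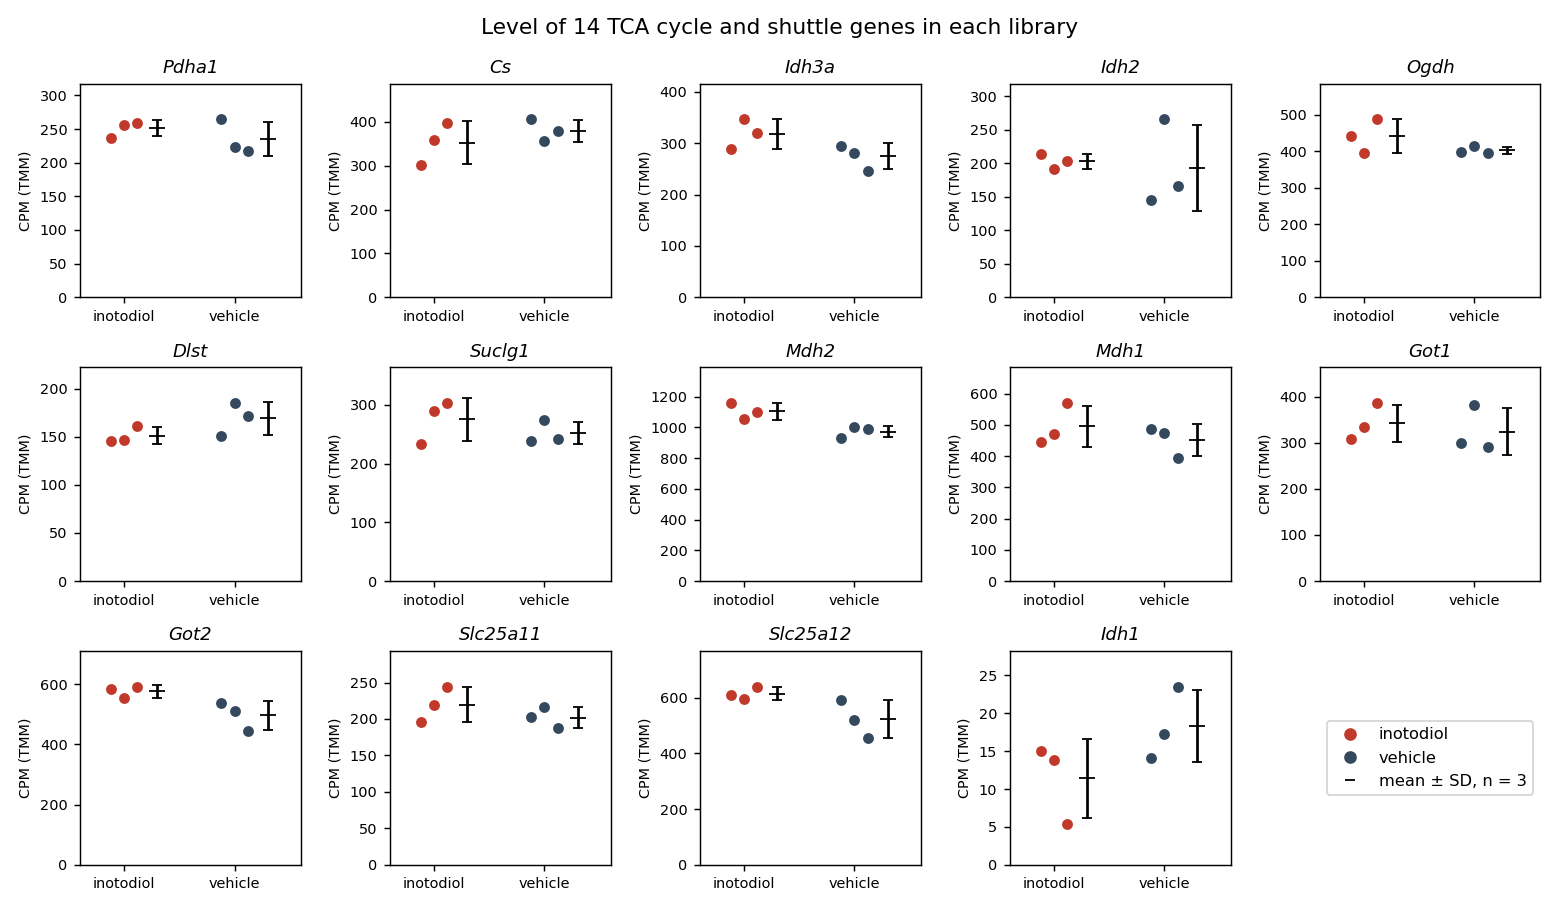
TMM-scaled CPM (y axis, from 0) of 14 members in each library (points, inotodiol left, vehicle right), with the mean and SD of 3 libraries in black. Points of both groups interleave in most panels; they separate in Mdh2, Got2 and Slc25a12.

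The malate-aspartate shuttle carries malate into the matrix and aspartate out of it, with a malate dehydrogenase and an aspartate aminotransferase on each side of the membrane. Slc25a12 (chromosome 2, 71271063 to 71367749, mm10) encodes the aspartate/glutamate carrier aralar, the main form in muscle. It had 609, 594 and 638 CPM in inotodiol libraries 1 to 3, against 589.9, 521 and 455 CPM in vehicle libraries 1 to 3. The groups did not overlap, but inotodiol 2 and vehicle 1 were nearly level. The log2 fold change was 0.23 ± 0.13 (95% interval -0.036 to 0.50), at an unadjusted p of 0.084 and an adjusted p of 0.96 in edgeR. It was 0.14 without vehicle 3 and 0.33 without vehicle 1 (unadjusted p 0.029, adjusted p 1.00). Got2 (chromosome 8, 95864134 to 95888547), the aspartate aminotransferase of the matrix, had 585, 553 and 591 CPM with inotodiol, against 536, 512 and 443 CPM with vehicle. Its groups did not overlap either, at a log2 fold change of 0.21 ± 0.12 (95% interval -0.045 to 0.47; edgeR adjusted p 0.96), and 0.14 without vehicle 3.

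The cytosolic partners overlapped between groups. Got1 had 308, 334 and 386 CPM with inotodiol, against 299, 383 and 292 CPM with vehicle, and Mdh1 had 446, 472 and 570.1 CPM, against 487, 474 and 393 CPM. Slc25a11, the carrier that exchanges malate for oxoglutarate, had 196, 219 and 244 CPM with inotodiol, against 203, 216 and 187 CPM with vehicle. The log2 fold changes were 0.079 ± 0.14 for Got1, 0.14 ± 0.14 for Mdh1 and 0.12 ± 0.13 for Slc25a11. Without inotodiol 3 they were -0.017, 0.022 and 0.038, in the same order of genes. Slc25a13, the carrier citrin of liver, had only 13 to 21 counts per library and a 95% interval from -1.44 to 1.33.

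Across all 28 members the groups did not overlap for 3, Mdh2, Got2 and Slc25a12, all higher with inotodiol. This is 10.7% of the members, near the 10.4% of all genes tested whose groups did not overlap (5.15% higher, 5.26% lower), so the count is at the background. The separation also depended on the scaling of the libraries. With upper-quartile factors it held for Mdh2 and Got2, and Pdhx was lower without overlap (4.85% higher and 5.6% lower of all genes). With library totals alone 0 members were higher without overlap and 2 were lower, Pdhx and Idh1 (2.15% and 10.4% of all genes). There the median over all genes was -0.12, and the log2 fold changes of Slc25a12, Got2 and Mdh2 were 0.12, 0.097 and 0.065.

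The 6 genes of the malate-aspartate shuttle list shared their highest and lowest libraries. Each had its highest value in inotodiol 3 and its lowest in vehicle 3, a combination seen in 3.35% of all genes tested and in no other member. The mean log2 level of these genes, centred on each gene's own mean of the 6 libraries, was -0.049, 0.012 and 0.22 in inotodiol libraries 1 to 3, against 0.0076, 0.053 and -0.25 in vehicle libraries 1 to 3. The groups overlapped, and the extremes were 1 mouse of each group. With library totals in place of TMM, inotodiol 3 was still the highest library for all 6, while vehicle 3 was the lowest for 2 and inotodiol 1 for the other 4. This pattern was noticed in the data and has no test. Mdh2, which also serves the shuttle but is listed with the cycle, was outside it. Its highest value was in inotodiol 1 (1158 CPM) and its lowest in vehicle 1 (929.8 CPM). Slc25a13 is among the 6 on only 13 to 21 counts per library. Slow-fibre genes (8 of 8 detected) summed to 2585, 2363 and 3131 unscaled CPM with inotodiol, against 3106, 3148 and 2360 with vehicle. On this unscaled measure vehicle 3 was the lowest library for them, level with inotodiol 2, and the lowest for 2 of the 6 shuttle genes. The TMM factors of vehicle 3 and inotodiol 2 were 1.06 and 0.930, so the 2 libraries were level only without that scaling. Vehicle 3 also had the highest sums of the 10 macrophage genes, 292 unscaled CPM against 65.5 to 198 in the other libraries, and of the 8 fibro-adipogenic genes, 2155 against 956 to 1240. None of the genes in these 3 lists was at 0 in any library, and their part in the shuttle values was not tested.

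**Figure D4:**
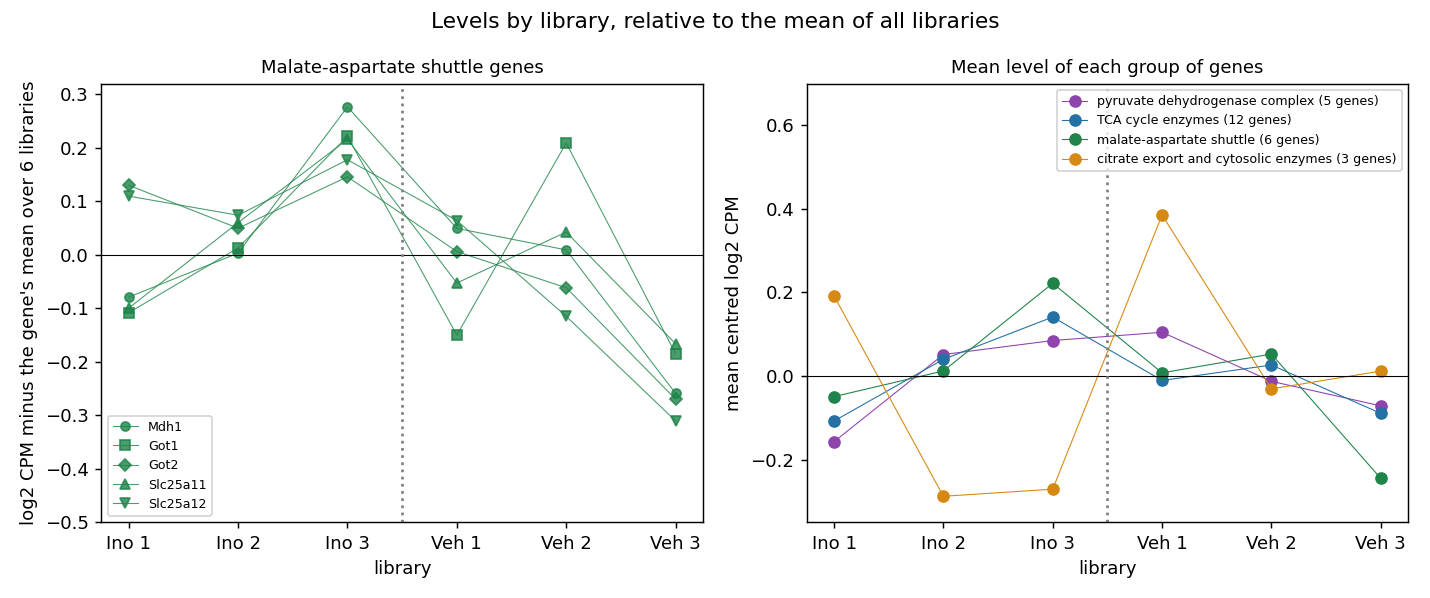
Log2 CPM relative to the mean of all 6 libraries, by library (x axis, inotodiol left of the dotted line, vehicle right), for 5 malate-aspartate shuttle genes (left) and as the mean of each group of genes (right). The shuttle genes peak in inotodiol 3 and are lowest in vehicle 3, at group means of 0.22 and -0.25.

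The 150 bases before the RefSeq start site (GRCm38.p6) are shown for the 3 members whose groups did not overlap, a choice made after the values were seen; capitals mark CG dinucleotides. Slc25a12 lies at chr2:71367756-71367905 on the minus strand, Got2 at chr8:95888402-95888551 on the minus strand and Mdh2 at chr5:135778499-135778648 on the plus strand. In GENCODE M21 the Mdh2 gene begins upstream, at 135778480, and Got2 begins at 95888547. The Mdh2 window and nearly all of the Got2 window thus lie inside the annotated genes.
Slc25a12: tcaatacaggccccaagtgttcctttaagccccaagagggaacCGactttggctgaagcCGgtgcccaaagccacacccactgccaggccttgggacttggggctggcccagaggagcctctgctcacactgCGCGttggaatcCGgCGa
Got2: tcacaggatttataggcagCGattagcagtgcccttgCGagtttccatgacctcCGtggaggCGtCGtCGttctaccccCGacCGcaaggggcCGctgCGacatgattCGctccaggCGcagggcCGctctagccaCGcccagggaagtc
Mdh2: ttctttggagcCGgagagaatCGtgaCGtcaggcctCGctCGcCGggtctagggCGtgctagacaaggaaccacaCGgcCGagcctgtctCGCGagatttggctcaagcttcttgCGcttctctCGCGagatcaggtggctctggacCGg
Slc25a12 has 6 CG dinucleotides in this window, Got2 14 and Mdh2 15, and 58.6%, 82.1% and 84.7% of all 32851 RefSeq promoters have fewer. RefSeq promoters were matched for 27 of the 29 members (35 windows from 250 bases before to 50 after a start site) and searched on both strands for 5 motifs. The site TNAAGGTCA of the estrogen-related receptors, which drive oxidative genes, was in 0 of the 35 windows and in 1.28% of all promoters. A strict liver X receptor repeat, AGGTCA and again AGGTCA after any 4 bases, which shares these letters with the site before, was in 0 and in 0.0152%. The palindromic consensus of nuclear respiratory factor Nrf1 was in 0 and in 0.971%. The ETS site CCGGAAG was in 3 windows, those of Idh3b, Idh3g and Dlst (8.57%, against 8.86% of all promoters), and the site AANATGGCG of the factor Yy1 in 3 windows of Idh3g and Ogdh (8.57%, against 2.38%). The 2 windows of Ogdh overlap and hold the same site, so these are 2 distinct sites. No match says only that these letters are not in these windows.

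Because ratios within a library do not depend on how libraries are scaled, 6 pairs of partner genes were also compared by their log2 count ratio. The largest difference between groups was for Sucla2 over Suclg2, the ATP-forming over the GTP-forming ligase subunit, with a mean of 2.43 ± 0.25 with inotodiol and 2.27 ± 0.16 with vehicle. Got2 over Got1, matrix over cytosol, averaged 0.75 ± 0.16 with inotodiol and 0.62 ± 0.21 with vehicle, and Mdh2 over Mdh1 1.16 ± 0.21 and 1.11 ± 0.20. Slc25a12 over Slc25a11 averaged 1.49 ± 0.13 with inotodiol and 1.36 ± 0.15 with vehicle, Pdha1 over Pdhb 0.44 ± 0.19 and 0.33 ± 0.046, and Idh3a over Idh3b 0.54 ± 0.17 and 0.44 ± 0.11. All 6 overlapped between groups. The two-sided exact permutation test gave p from 0.30 to 0.70, with adjusted p from 0.60 to 0.70 over the 6 ratios, and cannot go below 0.10 with 3 mice against 3.

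The 3 genes of citrate export and its cytosolic enzymes had standard errors from 0.32 to 0.57, above the members' median of 0.14. Idh1 (chromosome 1, 65158616 to 65186500), which makes NADPH from isocitrate in the cytosol, had 14.97, 13.9 and 5.43 CPM in inotodiol libraries 1 to 3, against 14.1, 17.3 and 23.5 CPM in vehicle libraries 1 to 3. Inotodiol 3 was far below and vehicle 3 above the rest, and the 4 other libraries interleaved. The log2 fold change was -0.68 ± 0.34 (95% interval -1.41 to 0.048, edgeR adjusted p 0.96), and -0.34 without inotodiol 3. Its unadjusted edgeR p was 0.021 with library totals alone and 0.020 without the filter on low counts. Without inotodiol 1 it was 0.028, and without vehicle 1 it was 0.042. The smallest adjusted p of Idh1 over all alternatives was 0.75, with library totals alone in edgeR. Aco1, the cytosolic aconitase that doubles as iron regulatory protein, averaged 8.60 ± 1.53 CPM with inotodiol and 10.4 ± 3.74 CPM with vehicle. Slc25a1, the mitochondrial citrate carrier, averaged 3.91 ± 2.18 and 3.04 ± 1.38 CPM from 14 to 54 counts per library, and its log2 fold change of 0.36 ± 0.57 was -0.046 without inotodiol 1. These genes are also active in liver and fat. White fat genes (10 of 10 detected in every library) summed to 581, 612 and 948 unscaled CPM with inotodiol, against 847, 689 and 936 with vehicle; their part and that of the hepatocyte genes in these values was not tested.

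Pcx, pyruvate carboxylase, which makes oxaloacetate to refill the cycle, averaged 19.0 ± 2.54 CPM with inotodiol and 18.4 ± 1.75 CPM with vehicle, a log2 fold change of 0.044 ± 0.21. Me2 had 15, 3 and 4 counts in inotodiol libraries 1 to 3, against 0, 6 and 5 counts in vehicle libraries 1 to 3, too few to compare. Gpd2, the inner-membrane glycerol phosphate dehydrogenase that ends the glycerol phosphate shuttle, averaged 223 ± 39.1 and 229.8 ± 12.6 CPM in the same order of groups, a log2 fold change of -0.041 ± 0.14. Gpd1, its cytosolic partner and no member of the set, had a log2 fold change of 0.22 ± 0.12 (edgeR adjusted p 0.96).

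Summed over all members, the pathway took 5924, 6228 and 7336 unscaled CPM in inotodiol libraries 1 to 3, against 6833, 6508 and 6283 in vehicle libraries 1 to 3. The means were 6496 ± 743 with inotodiol and 6542 ± 277 with vehicle, and after TMM scaling 6758 ± 390 and 6289 ± 318 CPM, so the sign of the difference turned with the scaling. Inotodiol 3 held the highest value of 13 of the 28 members (46.4%, against 19.7% of all genes tested), inotodiol 1 the lowest of 10 (35.7%, against 17%) and vehicle 3 the lowest of 9 (32.1%, against 15.3%). With library totals alone inotodiol 1 was lowest for 18 (64.3%, against 25.1%) and vehicle 3 for 3 (10.7%, against 9.62%). Inotodiol 1 was the library with the highest Rn45s share and the most liver and pancreas RNA. With Rn45s left out the median log2 fold change of the members was 0.064, and without the liver and pancreas genes 0.066. Above 0 were 16 of the 28 both times, as with all genes kept. Leaving these rows out does not change the members' own counts, and the part of these RNAs in them was not tested.

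The genes around the set were read from a list of 37 that control or supply the same steps, of which 34 were tested and 0 called by edgeR. At an unadjusted p under 0.05 there was 1, Pdk4, the kinase that switches off pyruvate dehydrogenase, against 4.87% of all genes. It had 86.7 ± 22.4 CPM with inotodiol and 169 ± 49.95 CPM with vehicle, a log2 fold change of -0.96 ± 0.21 (unadjusted p 5.9e-04, adjusted p 0.58), with the groups apart. Pdk2, another kinase of the complex, was apart the other way, at 472 ± 25.8 CPM with inotodiol and 397 ± 50.7 CPM with vehicle (log2 fold change 0.25 ± 0.13, edgeR adjusted p 0.96). In all 4 of the 34 genes (11.8%, against 10.4% of all genes) had groups that did not overlap, Pdk2 and Gpd1 higher and Pdk4 and Slc25a22 lower. Of 16 alternatives, the one that kept every gene with a count put Pdk4 past the threshold in edgeR (adjusted p 9.2e-05), and the others gave adjusted p of 0.060 to 1.00. The subunits of the complex that Pdk4 acts on, described above, lay between -0.11 and 0.094. Of the 34, 18 were above 0 and the median was 0.044. The 4 subunits of succinate dehydrogenase, which is also part of the respiratory chain, overlapped between groups. Their log2 fold changes included 0.15 ± 0.12 for Sdha and 0.17 ± 0.12 for Sdhb; the smallest unadjusted edgeR p of the 4 was 0.14, for Sdhd at -0.49 ± 0.31.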

How the data were processed

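RNA was sequenced from gastrocnemius muscle of 6 mice, and the authors deposited whole-number read counts per gene symbol, 1 table per mouse, with no normalization that the values show. The labels' protocols name a Lexogen Quant-Seq kit and total RNA as input, and the submitters' processing notes name mm10, Bowtie2 and bedtools. Not given in the sources used here are versions, annotation, strand setting, the treatment of multiply mapping reads, and whether counts rise with transcript length, so levels of different genes were not compared. Exons of Pdha1, Idh3b, Mdh1 and Slc25a11 overlap those of Map3k15, Nop56, Wdpcp and Rnf167 on the other strand, and Pdhb, Suclg2 and Got2 have a processed pseudogene of at least 95% identity over 200 bases or more (GENCODE M21), so their counts may hold or lack shared reads.

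All 23282 rows entered, 44 of them repeating a symbol. edgeR 4.0.16 (R 4.3.3) kept 11700 genes with filterByExpr (minimum count 10, minimum total 15), scaled them by TMM and ran the two-sided quasi-likelihood test with group as the only term. Standard errors came from the fitted weights and the moderated dispersion. P-values set the difference against the spread among 3 mice per group, with the dispersion moderated across all genes tested. The members and lists were chosen with earlier results of these data known. Named were all members, with values by library for the 10 with the smallest p and for Cs, Pdha1, Ogdh, Idh2 and Got1, and, of the other pathway genes, those at an unadjusted p under 0.05 and Pdk4; Pdk2, Slc25a22, Gpd1, Sdha, Sdhb and Sdhd, the ratios and the libraries' order were added after values were seen. Lists of endothelial, erythroid, Schwann cell and brown fat genes overlapped between groups in their summed unscaled CPM, as did all the lists but the hepatocyte one. Some lists still leaned by gene, where 49.9% of all genes were above 0. All 19 hepatocyte genes tested were above 0. Among the others, 0 of 8 fibro-adipogenic, 7 of 7 Schwann cell, 6 of 6 erythroid and 11 of 13 fast-fibre genes were. Other lists had white fat 3 of 10, macrophage 4 of 10, slow-fibre 4 of 8, endothelial 5 of 7 and brown fat 4 of 5. An unadjusted edgeR p under 0.05 was met by 17 of the 19 hepatocyte genes, against 4.87% of all genes, and 0 were called. The other lists held 3 fibro-adipogenic, 2 Schwann cell, 1 erythroid and 1 macrophage gene under 0.05. Alternatives were other scalings and filters, DESeq2 1.42.0, limma-voom 3.58.1, the replicate number as a block, each library left out, and tables without Rn45s or the liver and pancreas genes.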

Additional observations from a re-analysis of the deposited data

How the results depend on the processing

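None of the 28 members that passed the filter was called under any of the 16 alternatives. Me2, which entered only without a filter and with DESeq2, was not counted. The largest shift of the members' median came with library totals alone. This setting moved the median of all genes to -0.12, the median of the members to -0.049 and the members above 0 to 10 of 28. With it Pdha1 was at -0.023, Idh3g at -0.065, Idh2 at -0.032, Sucla2 at -0.0080, Pcx at -0.065 and Got1 at -0.028, opposite in sign to the values with TMM. Genes called over the whole table numbered 95 without a filter and 1 with DESeq2, against 0. With single libraries left out the called genes ranged from 0 to 25 (25 without inotodiol 3), the median of the members from 0.0098 to 0.13 and the members above 0 from 15 to 22. Over the same runs Pdhb ranged from -0.093 to 0.13, Dlat from -0.092 to 0.065, Dld from -0.11 to 0.093, Suclg2 from -0.14 to 0.17, Fh1 from -0.29 to 0.027, Idh2 from -0.091 to 0.39, Pcx from -0.069 to 0.12, Slc25a1 from -0.046 to 0.74, Aco1 from -0.49 to 0.029, Got1 from -0.017 to 0.22, Slc25a13 from -0.26 to 0.069 and Gpd2 from -0.19 to 0.053. The other 16 members kept their sign: Pdha1 ranged from 0.043 to 0.19, Pdhx from -0.15 to -0.048, Cs from -0.20 to -0.0038, Idh3a from 0.14 to 0.28, Idh3b from 0.016 to 0.19, Idh3g from 0.0010 to 0.14, Ogdh from 0.055 to 0.21, Dlst from -0.24 to -0.083, Sucla2 from 0.035 to 0.22, Suclg1 from 0.058 to 0.24, Mdh2 from 0.15 to 0.22, Mdh1 from 0.022 to 0.21, Got2 from 0.14 to 0.27, Slc25a11 from 0.038 to 0.20, Slc25a12 from 0.14 to 0.33 and Idh1 from -0.93 to -0.34. The cause was not tested. The replicate block called 0 genes and gave a member median of 0.071; deviations of libraries with the same number correlated at -0.081, 0.11 and 0.022, so the numbers were not taken as pairs. Low counts limit Slc25a1, Slc25a13 and Me2.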
